A study of Mus musculus with 30 samples.

Results

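CD4 T lymphocytes cultured with IL-2 and IL-12 were compared with CD4 T lymphocytes cultured with IL-2 and IL-4. The comparison takes the arrays titled for these cultures, 3 of each, out of 30 arrays in the study, which fall into 10 groups of 3. Both cultures contained IL-2 at 4 ng/ml. The IL-2/IL-12 culture had IL-12 at 5 ng/ml and the IL-2/IL-4 culture had IL-4 at 10 ng/ml. Spleens of male mice of the C57Bl/6 strain, 6 to 10 weeks old, were the source, and CD8 cells in the same cultures, fresh cells and B cells make up the rest of the study. A custom Affymetrix array of genes for glycan-building enzymes, glycan-binding proteins, cytokines and their receptors gave 1 signal per probe set, a group of probes for one transcript. Arrays carry a letter in their titles, D, E and L in the IL-2/IL-12 group and A, B and C in the IL-2/IL-4 group, so letter and condition cannot be told apart. The labels do not tell whether the 3 arrays of a group are separate mice or separate cultures, so a p-value reflects the spread among arrays, and that spread may be technical. Any T-cell stimulus beyond the cytokines is not given in the sources used here. For the culture time, 72 hours is named for IL-2/IL-4 arrays A and B and for 0 of the IL-2/IL-12 arrays.

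IL-12 and IL-4 steer activated CD4 T cells toward different helper fates. IL-12 signals through the factor Stat4 and favours type 1 helper cells, which make interferon gamma and act against intracellular microbes. IL-4 signals through Stat6 and Gata3 and favours type 2 helper cells, which make IL-4 and IL-13, carry the chemokine receptors Ccr4 and Ccr8, and act against worms and in allergy. IL-2 sustains the growth of both.

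Every IL-2/IL-12 array had a higher median signal than every IL-2/IL-4 array. It averaged 138.6 ± 4.89 in IL-2/IL-12 arrays and 125.1 ± 8.54 in IL-2/IL-4 arrays (SD, n = 3 each; exact two-sided permutation p = 0.1, the smallest that 3 against 3 arrays allow). The ratio of 3′ to 5′ beta-actin signal, a measure of RNA integrity, averaged 0.975 in IL-2/IL-12 arrays and 0.986 in IL-2/IL-4 arrays (exact permutation p = 0.4), and that of Gapdh averaged 0.757 in IL-2/IL-12 arrays and 0.837 in IL-2/IL-4 arrays (exact permutation p = 0.2). The part of array brightness or RNA quality in the results was not tested beyond the scalings and the beta-actin covariate named with them. Pearson correlations of log2 signal over all probe sets ran from 0.932 to 0.937 between IL-2/IL-12 arrays and from 0.923 to 0.927 between IL-2/IL-4 arrays. Across the groups they ran from 0.887 to 0.920, below every within-group value. Summed signal of the 3 measured T-cell markers was 12492 to 17382 in IL-2/IL-12 arrays and 8393 to 12316 in IL-2/IL-4 arrays, against 1917 to 3490 in fresh B cells. These markers are Cd40lg, Il7r and Cd2, whose own log2 changes, IL-2/IL-12 minus IL-2/IL-4, were 1.41, 1.04 and 0.27. No probe set is named here for the Cd4 gene, and 296 carry no name, so the CD4 label rests on the titles. B-cell markers summed to 555 to 695 in IL-2/IL-12 arrays and 589 to 892 in IL-2/IL-4 arrays, against 20353 to 25171 in fresh B cells. Myeloid and dendritic markers summed to 158 to 341 in IL-2/IL-12 arrays and 148 to 158 in IL-2/IL-4 arrays. In such bulk samples fewer cells of a type and less RNA per cell cannot be told apart.

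The clearest difference was in the type 2 helper genes: Il4 and its partner in that program, the chemokine receptor gene Ccr4, were far lower with IL-12 than with IL-4. Cd83, an activation-linked surface molecule, was also lower. Timp1, Cxcl14 and Klrd1, and 3 probe sets without a gene name, were higher with IL-12. In all, 10 of 746 probe sets passed the threshold of an adjusted p under 0.05 in limma, which is 1.34% of those tested. The arrays of the groups do not overlap for any of the 10, as for 21.8% of all probe sets. Of the 10, 6 were higher with IL-12 (0.804%) and 4 were lower (0.536%). The 10 stand for 6 named genes out of 375, with 2 probe sets for Il4, and 3 probe sets that carry an accession alone. Over all probe sets the median log2 change was 0.04 and the median size of a change was 0.34, with a median standard error (SE) of 0.47. Changes are differences of log2(signal + 16), a scale that understates the change of dim genes.

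**Figure D1:**
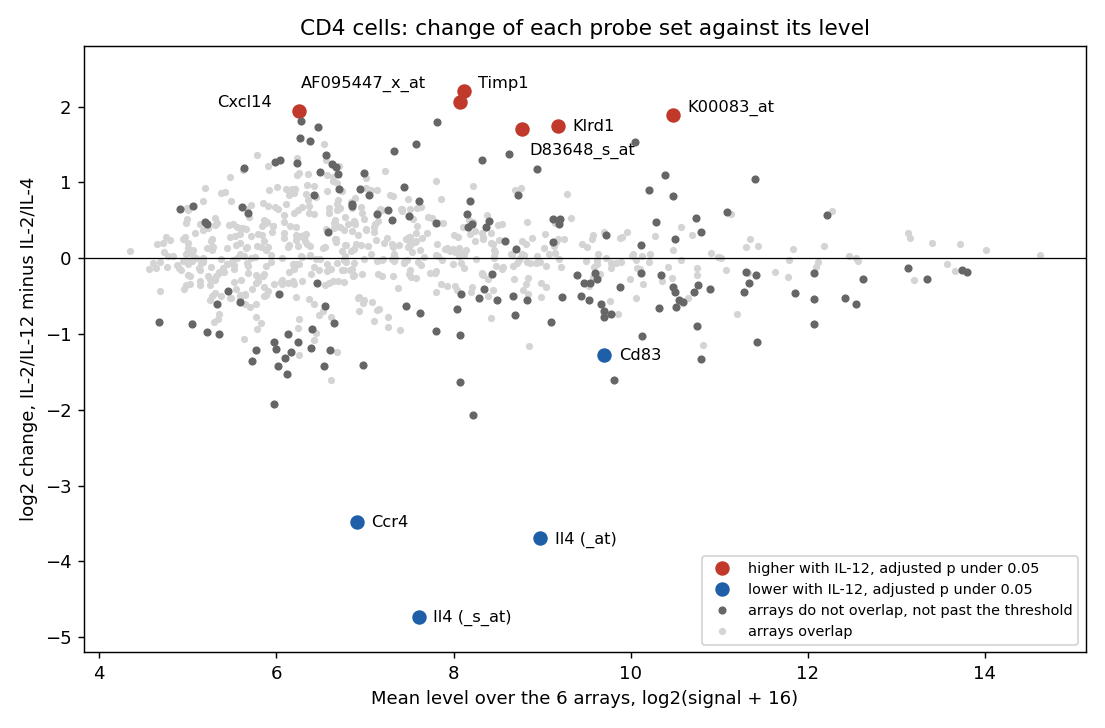
Log2 change (IL-2/IL-12 minus IL-2/IL-4, vertical axis) of each of 746 probe sets in CD4 cells against its mean level over the 6 arrays (log2(signal + 16), horizontal axis). Red and blue points passed the threshold, dark grey points did not pass but their arrays do not overlap between the groups, and light grey points overlap. Both Il4 probe sets and Ccr4 lie below -3, apart from every other point.

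Il4 encodes interleukin-4, the cytokine that type 2 helper cells make and respond to. Its brighter probe set (NM_021283_at) had signals of 82.5, 162 and 141 in IL-2/IL-12 arrays D, E and L, against 2009.9, 2091 and 1385 in IL-2/IL-4 arrays A, B and C. The groups are far apart, with every IL-2/IL-12 array below every IL-2/IL-4 array. The log2 change was -3.69 ± 0.44 (SE; limma adjusted p = 3.04e-06), 12.9-fold lower on the scale of signal + 16. The other Il4 probe set (NM_021283_s_at) had signals of 28.7, 32.6 and 9 in IL-2/IL-12 arrays, against 967, 1257 and 793 in IL-2/IL-4 arrays. Its log2 change was -4.73 ± 0.47 (limma adjusted p = 2.91e-07), so both probe sets show the same direction. With IL-2 alone the brighter probe set read 168, 383 and 132, and in fresh CD4 cells it read 17.1, 26.6 and 46, so that cells given IL-12 lay near the IL-2 culture and only cells given IL-4 were above 1000. These levels are a description, since they were not tested against either group.

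Ccr4, a chemokine receptor that draws type 2 helper cells to skin and inflamed tissue, showed a like pattern. Its signals were 15.4, 28.4 and 17.7 in IL-2/IL-12 arrays, against 311, 409.8 and 449 in IL-2/IL-4 arrays. No array of one group came near the other. The log2 change was -3.48 ± 0.41 (SE; limma adjusted p = 3.04e-06), 11.1-fold lower on the scale of signal + 16. With IL-2 alone, arrays D and L read 19.7 and 19.8 while array E read 196, and array E was also the highest of the IL-2 arrays for both Il4 probe sets. Fresh CD4 cells read 36.1 to 42.3. No detection call was used, so the lowest signals of Il4 and Ccr4 are not shown to lie above background.

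Sequences just upstream of these genes are shown because Il4 and Ccr4 were lower with IL-12 than with IL-4, while Timp1 was higher. Another reason is that Stat6 and Gata3 are known to act on the Il4 locus. They are RefSeq promoter windows of GRCm38.p6, from 250 bases before to 50 bases after the annotated start, and 4 of the 6 named genes that passed have such windows, 5 in all. The Il4 window shown is 1 of 2, and the Cxcl14 window is not shown. Capitals mark matches on either strand to TTCNNNNGAA or TTCNNNGAA (the spacings known for Stat6 and for other Stat factors), to the AP-1 element (TGA, then any base, then TCA) or to GATAA, the core bound by Gata3; the sequence is printed on the gene's strand, 5′ to 3′.
Il4, chr11:53618616-53618915, minus strand: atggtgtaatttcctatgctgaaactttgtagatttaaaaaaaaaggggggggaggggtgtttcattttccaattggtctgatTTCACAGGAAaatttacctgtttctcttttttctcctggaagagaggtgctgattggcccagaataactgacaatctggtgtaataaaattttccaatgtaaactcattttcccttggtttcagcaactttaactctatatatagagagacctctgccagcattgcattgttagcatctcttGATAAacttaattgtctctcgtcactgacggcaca
Ccr4, chr9:114496495-114496794, minus strand: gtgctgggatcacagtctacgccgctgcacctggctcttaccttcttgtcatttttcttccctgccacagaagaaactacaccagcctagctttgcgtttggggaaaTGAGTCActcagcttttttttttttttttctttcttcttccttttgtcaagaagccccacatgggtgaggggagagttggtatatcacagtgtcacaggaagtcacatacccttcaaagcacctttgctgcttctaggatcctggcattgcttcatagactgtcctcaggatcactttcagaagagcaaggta
Timp1, chrX:20869916-20870215, plus strand: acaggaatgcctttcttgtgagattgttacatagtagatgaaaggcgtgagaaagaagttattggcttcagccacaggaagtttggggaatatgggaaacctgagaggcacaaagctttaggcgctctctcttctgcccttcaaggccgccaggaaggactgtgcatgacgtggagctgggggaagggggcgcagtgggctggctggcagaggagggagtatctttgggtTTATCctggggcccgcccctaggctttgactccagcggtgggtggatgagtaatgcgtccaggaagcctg
The Il4 window shown holds 1 match to TTCNNNNGAA, found in 6.95% of 32851 promoter windows, and 1 to GATAA, found in 25.4%. The Ccr4 window holds 1 match to the AP-1 element, found in 7.81% of windows. The Timp1 window holds 1 match to GATAA, read on the other strand as TTATC. The motif TTCNNNGAA, found in 8.30% of windows, has 0 matches in the 3 windows shown, 1 in the second Il4 window and 1 in the Cxcl14 window. The second Il4 window has 0 matches to the other motifs, so the Il4 matches depend on which annotated start is taken. A match here is a description of letters and not a measured site.

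**Figure D2:**
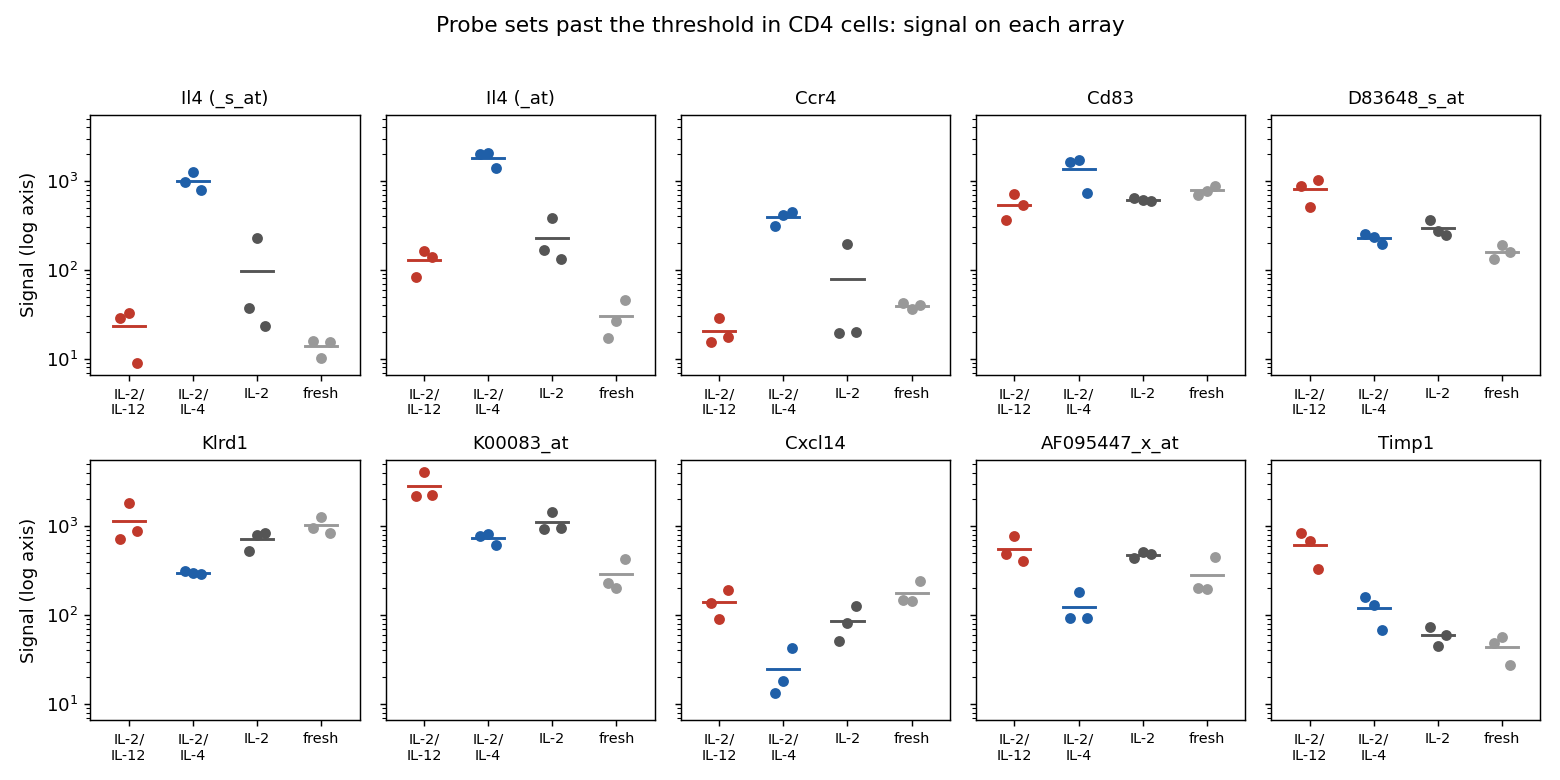
Signal on each array (vertical log axis) for the 10 probe sets that passed the threshold, in CD4 cells cultured with IL-2/IL-12, with IL-2/IL-4, with IL-2 alone, and fresh. Points are arrays and bars are means of 3. The IL-2/IL-12 and IL-2/IL-4 points do not overlap in any panel, and for Il4 and Ccr4 IL-2 array E lies above the other IL-2 arrays.

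Among the type 2 helper genes as a list, 2 of 10 measured members, Il4 and Ccr4, were lower with IL-12 than with IL-4. The other 8 did not pass. Over all probe sets 0.536% passed as lower. The list's median log2 change was -0.40, against 0.11 over all named genes. Arrays did not overlap in the downward direction for 4 of the 10, where 12.2% of all probe sets have this. For 1 they did not overlap in the upward direction, where 9.65% have this. Changes were negative for 7 of the 10 and positive for 3, Il3, Areg and Il5. Il13, the second cytokine of the type 2 program, had signals of 297, 207 and 28.5 in IL-2/IL-12 arrays, against 870, 717 and 339 in IL-2/IL-4 arrays. The groups do not overlap, but the spread within each is wide, and its log2 change of -2.07 ± 0.80 did not pass (limma adjusted p = 0.33). Ccr8, the other chemokine receptor linked to type 2 cells, read 537, 536 and 437 in IL-2/IL-12 arrays, against 1721, 1712 and 1273 in IL-2/IL-4 arrays. Its arrays are well separated, yet its log2 change of -1.60 ± 0.48 did not pass (limma adjusted p = 0.17). Ccr8 did pass when the fit held only the 12 CD4 arrays (adjusted p = 0.0084), only the 6 arrays compared (0.044), after median centring (0.044) or with a pseudocount of 64 (0.032). It did not pass in the other settings. Among these were quantile normalization (limma adjusted p = 0.093) and scan period (0.38), scan day (0.997) or chip lot (0.32) as a block. Nor did it pass with any of the 6 arrays left out (limma adjusted p = 0.18 to 0.44). Il3, a growth cytokine shared by several helper types, had a log2 change of 0.93 ± 0.63, opposite in sign to Il4, and Tnfrsf4, the OX40 receptor that supports helper T-cell survival, was near 0 at -0.08 ± 0.51; neither passed.

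None of the 10 measured type 1 helper genes passed (6 had a positive and 4 a negative change). Of the 10, 4 had an unadjusted p under 0.05, against 9.79% of all probe sets, and Lta, with a negative change, is among these 4. The list's median log2 change was 0.43. For 4 of 10 the IL-2/IL-12 arrays lay wholly above the IL-2/IL-4 arrays, where 9.65% of all probe sets do. For 1 of 10, Il12rb1, they lay wholly below, where 12.2% do. No probe set is named here for the gene of interferon gamma. Cxcr6, a chemokine receptor found on effector T cells, read 661, 783 and 729 in IL-2/IL-12 arrays, against 263, 362 and 314 in IL-2/IL-4 arrays. The groups do not overlap and each is tight, with a log2 change of 1.18 ± 0.37 (limma adjusted p = 0.20). Il18rap, a chain of the receptor for IL-18, which acts with IL-12, read 207, 77.2 and 130.1 in IL-2/IL-12 arrays, against 25.1, 13.5 and 41.8 in IL-2/IL-4 arrays. It too was separate in every array, at 1.81 ± 0.58 (limma adjusted p = 0.20). Cxcr3, the receptor for interferon-induced chemokines, had a log2 change of 0.92 ± 0.62 and its arrays overlapped. Lta, which encodes lymphotoxin alpha and is often placed with type 1 cytokines, went the other way in sign, at -1.14 ± 0.42 (limma adjusted p = 0.29), with 1354, 1517 and 843 in IL-2/IL-12 arrays and 3887, 3279 and 1488 in IL-2/IL-4 arrays, where 1 array of each group crosses.

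The receptor for IL-12 itself has 2 chains. Il12rb1, the chain shared with the IL-23 receptor, had signals of 4932, 4609.7 and 4118 in IL-2/IL-12 arrays, against 5475, 6582 and 7755 in IL-2/IL-4 arrays, a log2 change of -0.52 ± 0.51 (limma adjusted p = 0.79). Il12rb2, the chain that carries the Stat4 signal, had 3176, 3478 and 1869 in IL-2/IL-12 arrays, against 1999, 2192 and 1375 in IL-2/IL-4 arrays, a log2 change of 0.59 ± 0.37 (limma adjusted p = 0.65). The 2 chains thus had opposite signs and neither passed. Arrays of the groups do not overlap for Il12rb1 and overlap for Il12rb2.

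**Figure D3:**
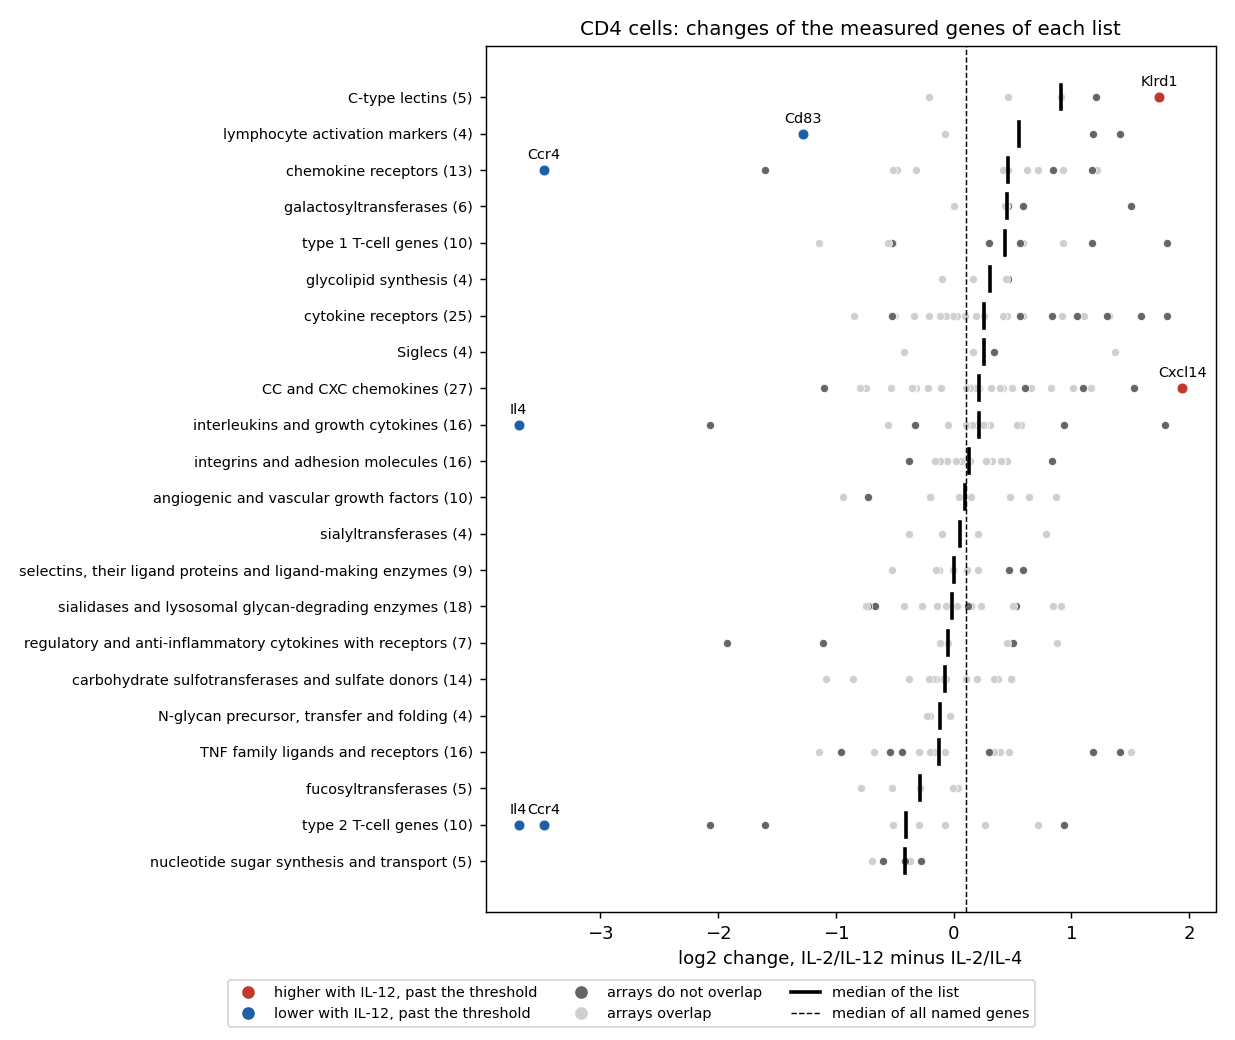
Log2 change (IL-2/IL-12 minus IL-2/IL-4, horizontal axis) of each measured gene in the function lists with 4 or more measured genes, with the number of genes in brackets. Black bars are list medians and the dashed line is the median of all named genes. Coloured points passed the threshold. The lowest are Il4, in the type 2 and interleukin lists, and Ccr4, in the type 2 and chemokine receptor lists. Most genes of lists other than the type 2 list lie between -1 and 1.

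Among 27 measured chemokines, 1 was higher with IL-12 than with IL-4 and 26 did not pass (0.804% of all probe sets passed as higher). Cxcl14, a chemokine made mainly by epithelial and stromal cells, had signals of 137, 89.6 and 189.6 in IL-2/IL-12 arrays, against 13.2, 18.2 and 42.6 in IL-2/IL-4 arrays. Its groups do not overlap, and the log2 change was 1.94 ± 0.48 (SE; limma adjusted p = 0.0397). The call was lost with a pseudocount of 64 (adjusted p = 0.095), with trend and robust settings (0.056), with scan period (0.27), scan day (0.997) or chip lot (0.12) as a block and with only the 6 arrays compared (0.075). With IL-2 alone it read 51.1, 81.1 and 127, and in fresh cells 149, 144 and 239, so the IL-2/IL-4 arrays are the lowest of the CD4 groups. A second Cxcl14 probe set had a log2 change of 1.12 and did not pass (limma adjusted p = 0.61). Ccl3 and Ccl4, a pair of inflammatory chemokines, had log2 changes of 1.53 ± 0.54 and 1.10 ± 0.40 (limma adjusted p = 0.27 each). Ccl4 read 1859, 1902 and 2082 in IL-2/IL-12 arrays, against 781, 991 and 938 in IL-2/IL-4 arrays, and Ccl3 was likewise separate in every array. Ccl5, another inflammatory chemokine, had a log2 change of 0.61 ± 0.52, while its second probe set had -0.18. Among 13 chemokine receptors, Ccr4 was lower with IL-12 than with IL-4 and 12 did not pass (0.536% of all probe sets passed as lower). Ccr8 and Cxcr6, described above, were the largest of these 12 in each direction by their test statistics.

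Of 25 cytokine receptors 0 passed in limma, 5 were at an unadjusted p under 0.05 (9.79% of all probe sets are), and for 6 the IL-2/IL-12 arrays lay wholly above the IL-2/IL-4 arrays (9.65% of all probe sets), for 1 below (12.2%). Il7r, the receptor for the survival cytokine IL-7, read 4425, 4422 and 2958 in IL-2/IL-12 arrays, against 1614, 1985 and 2036 in IL-2/IL-4 arrays. The log2 change was 1.04 ± 0.36 (limma adjusted p = 0.27). Il7r passed with chip lot as a block, at 1.28 (limma adjusted p = 0.013), and in no other setting. Among 16 interleukins and growth cytokines, Il4 was lower with IL-12 than with IL-4 and 15 did not pass (0.536% of all probe sets passed as lower). Il17a, the cytokine that defines another helper fate, read 488, 406 and 329.9 in IL-2/IL-12 arrays, against 132, 103 and 83.9 in IL-2/IL-4 arrays. Its groups are separate, with a log2 change of 1.80 ± 0.61 (limma adjusted p = 0.27), and IL-2 alone spanned 162 to 667. Il10, a cytokine that dampens immune responses, was at 1135, 1432 and 926 in IL-2/IL-12 arrays and 1443, 1281 and 905 in IL-2/IL-4 arrays, a log2 change of -0.05 ± 0.36.

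The transforming growth factor genes lay lower with IL-12 for 2 of the 3 ligands. Tgfb3 read 14.2, 12.6 and 22.6 in IL-2/IL-12 arrays, against 148, 72.8 and 109.7 in IL-2/IL-4 arrays, and Tgfb1 had a log2 change of -1.11 ± 0.49 with separate arrays. The change of Tgfb3 was -1.93 ± 0.69. Neither passed (limma adjusted p = 0.27 for Tgfb3 and 0.45 for Tgfb1). Tgfb2 had a positive sign, at 0.50 ± 0.48.

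Timp1, a secreted inhibitor of matrix metalloproteinases, had the largest positive change of the probe sets that passed. Its signals were 834, 688 and 334 in IL-2/IL-12 arrays, against 160, 130.1 and 67.9 in IL-2/IL-4 arrays. The lowest IL-2/IL-12 array is above the highest IL-2/IL-4 array. The log2 change was 2.20 ± 0.55 (SE; limma adjusted p = 0.0424), 4.60-fold higher on the scale of signal + 16. The call was lost after median centring (adjusted p = 0.11) or quantile normalization (0.093), with a pseudocount of 1 (0.15), with the beta-actin ratio as a covariate (0.052), with scan day (0.12) or chip lot (0.067) as a block and with only the 6 arrays compared (0.075). With IL-2 alone Timp1 read 73.4, 44.6 and 60.3, and in fresh CD4 cells 27.4 to 56.4, so the IL-2/IL-12 arrays were the highest of the CD4 groups.

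Klrd1 encodes CD94, a lectin-like receptor of natural killer cells and of some activated T cells that binds a nonclassical histocompatibility molecule. It read 712, 1806 and 883 in IL-2/IL-12 arrays, against 314, 300.1 and 287 in IL-2/IL-4 arrays. The IL-2/IL-4 arrays are close to each other and all below the IL-2/IL-12 arrays, of which E is the highest. The log2 change was 1.74 ± 0.43 (SE; limma adjusted p = 0.0390). The call was lost after median centring (adjusted p = 0.11) or quantile normalization (0.055), with a pseudocount of 1 (0.054), with scan period (0.22), scan day (0.59) or chip lot (0.067) as a block and with only the 6 arrays compared (0.089). Fresh CD4 cells read 827 to 1267 and the IL-2 culture 525 to 842. The measured markers of natural killer cells are Klrd1 and Itga2, whose sum was 759 to 1835 in IL-2/IL-12 arrays and 300.1 to 334 in IL-2/IL-4 arrays; Itga2 alone was 8 to 47.5 in IL-2/IL-12 arrays and 10.5 to 19.7 in IL-2/IL-4 arrays. CD8 cells in the IL-2/IL-12 culture had Klrd1 signals of 5281 to 7333, and the measured CD8 marker Itgae was 271 to 352 in CD4 IL-2/IL-12 arrays and 187 to 306 in CD4 IL-2/IL-4 arrays, against 1981 to 3165 in fresh CD8 cells. In cultured CD8 cells Itgae was 197 to 271 with IL-12 and 218 to 299.5 with IL-4, no higher than in the CD4 cultures, so it does not mark CD8 cells in culture. The part of other cells in the Klrd1 difference was not tested. Among 5 measured C-type lectin genes, Klrd1 was higher with IL-12 than with IL-4 and 4 did not pass (0.804% of all probe sets passed as higher).

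Cd83, a surface molecule that appears on activated lymphocytes and dendritic cells, read 360.2, 719.8 and 541 in IL-2/IL-12 arrays, against 1639, 1729 and 742 in IL-2/IL-4 arrays. The groups do not overlap, but IL-2/IL-12 array E and IL-2/IL-4 array C are nearly level. The log2 change was -1.28 ± 0.28 (SE; limma adjusted p = 0.0173). The call was lost with only the 12 CD4 arrays (adjusted p = 0.17) or the 6 arrays compared (0.26) and with scan period (0.30) or scan day (0.997) as a block. IL-2 alone gave 598 to 646 and fresh cells 704 to 872, so IL-2/IL-4 arrays A and B stood above the other CD4 arrays. Of 4 measured activation markers, Cd83 was lower with IL-12 than with IL-4 and 3 did not pass (0.536% of all probe sets passed as lower). Cd40lg, the ligand through which helper cells activate B cells, read 238, 189 and 332 in IL-2/IL-12 arrays, against 54, 119 and 86.1 in IL-2/IL-4 arrays, at 1.41 ± 0.63 (limma adjusted p = 0.46). Tnfrsf9, the costimulatory receptor 4-1BB, was at 1.18 ± 0.45 (limma adjusted p = 0.32), with dim signals of 43.2 to 77.2 in IL-2/IL-12 arrays and 12.6 to 20.8 in IL-2/IL-4 arrays. Across 16 measured ligands and receptors of the TNF family 0 passed in limma, with 4 at an unadjusted p under 0.05; for 3 the IL-2/IL-12 arrays lay wholly above the IL-2/IL-4 arrays and for 3 wholly below, against 9.65% and 12.2% of all probe sets, of which 9.79% are at an unadjusted p under 0.05.

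A further 3 probe sets without a gene name here were higher with IL-12 than with IL-4. D83648_s_at read 877, 513 and 1026 in IL-2/IL-12 arrays, against 250.4, 237 and 197 in IL-2/IL-4 arrays, which is 1.70 ± 0.30 higher on the log2 scale (SE; limma adjusted p = 0.00154). AF095447_x_at read 481, 772 and 409.7 in IL-2/IL-12 arrays, against 92.3, 179 and 93.1 in IL-2/IL-4 arrays, at 2.06 ± 0.42 (limma adjusted p = 0.00852). Its suffix marks probes shared with related transcripts, and the second probe set of that accession had 1.12 ± 0.42 and did not pass (limma adjusted p = 0.29). K00083_at read 2184, 4089.7 and 2269.5 in IL-2/IL-12 arrays, against 766, 823 and 607 in IL-2/IL-4 arrays, at 1.89 ± 0.45 (limma adjusted p = 0.0327). None of the 3 overlapped between the groups, and K00083_at was brighter still in CD8 cells, at 8696 to 9604 with IL-12 and 3659 to 6783 with IL-4.

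No gene named here for a glycan-building or glycan-degrading enzyme passed. The 296 probe sets without a name, of which 3 passed, are not covered by this. Across the 12 lists of glycan enzymes, 0 of 67 measured genes passed in limma, while 6 reached an unadjusted p under 0.05, as 9.79% of all probe sets do. Signs were even, with 32 positive and 35 negative changes and a median of -0.01 on the log2 scale. Arrays did not overlap in 7 of the 67 upward (10.4%) and 6 downward (8.96%), close to the 9.65% and 12.2% over all probe sets. B3galt2, a galactosyltransferase, read 323, 219 and 399 in IL-2/IL-12 arrays, against 98.5, 129 and 71.6 in IL-2/IL-4 arrays, at 1.50 ± 0.53 (limma adjusted p = 0.27). All 6 measured galactosyltransferases had a positive sign, with a median of 0.45 against 0.11 over all named genes. A positive sign was held by 400 of all 746 probe sets. C1galt1, which makes the core 1 O-glycan, was at 0.59 ± 0.29 with separate arrays. Mgat3, which adds the bisecting N-acetylglucosamine of N-glycans, was at 1.27 ± 0.51 (limma adjusted p = 0.36), with IL-2/IL-12 array L at 177 and the others at 56.2 and 53, against 13.2 to 33.1 in IL-2/IL-4 arrays. Cmah, which hydroxylates sialic acid, was at 1.29 ± 0.52 with overlapping arrays. Glb1, the lysosomal beta-galactosidase, read 698, 672 and 621 in IL-2/IL-12 arrays, against 1029.5, 1143 and 1165 in IL-2/IL-4 arrays, at -0.73 ± 0.29 (limma adjusted p = 0.34). All 5 measured genes of nucleotide sugar supply had a negative sign, among them the glucosamine acetyltransferase Gnpnat1 at -0.60 ± 0.31 and the hexokinase Hk1 at -0.41 ± 0.27. For 3 of the 5 the IL-2/IL-12 arrays lay wholly below the IL-2/IL-4 arrays, where 12.2% of all probe sets do. In limma 0 of the 5 passed, with 0 at an unadjusted p under 0.05.

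Selectin ligands on helper T cells need the fucosyltransferase Fut7, the O-glycan branching enzyme Gcnt1 and the carrier protein Selplg. Fut7 read 276, 258 and 341 in IL-2/IL-12 arrays and 284, 241 and 359.5 in IL-2/IL-4 arrays, a log2 change of -0.01 ± 0.66. Gcnt1 was dim, at 18.4 to 51.6 in IL-2/IL-12 arrays and 17.4 to 56.2 in IL-2/IL-4 arrays, and Selplg had a change of -0.13 ± 0.29. In limma 0 of 9 selectin-related genes, 0 of 4 sialyltransferases and 0 of 16 integrin and adhesion genes passed, and 0 in each had an unadjusted p under 0.05. Among 14 sulfotransferase and sulfate donor genes 0 passed in limma, with 1 at an unadjusted p under 0.05, Chst3, which sulfates chondroitin and keratan chains, at -1.08 ± 0.52. With an SE of 0.66 for Fut7, a change of similar size would not have passed.

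CD8 cells cultured in the same way tell whether a difference was shared by both T-cell subsets. In CD8 cells 4 of 746 probe sets passed (0.536%), and 3 of these, Timp1, Cd83 and D83648_s_at, also passed in CD4 cells in the same direction, which is 3 of 4 in the CD8 list and 3 of 10 in the CD4 list. In CD8 cells Timp1 was 3.28 ± 0.55 higher on the log2 scale with IL-12 than with IL-4. Its CD8 signals were 1169.6, 582 and 946 in IL-2/IL-12 arrays, against 142, 45 and 61.6 in IL-2/IL-4 arrays. Cd83 changed by -1.29 ± 0.28 in CD8 cells and by -1.28 ± 0.28 in CD4 cells (limma adjusted p = 0.024 for CD8 cells). Cxcr6 passed in CD8 cells, at 2.11 ± 0.37 (limma adjusted p = 0.0017), and did not in CD4 cells; the difference between the subsets was -0.93 ± 0.52 and did not pass (limma adjusted p = 0.87).

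The difference itself, tested as an interaction, passed for 2 probe sets (0.268%), Il4 and Ccr4, both more negative in CD4 cells. Ccr4 signals in CD8 cells were 11, 12.8 and 11.1 in IL-2/IL-12 arrays, against 21.1, 15.4 and 18.7 in IL-2/IL-4 arrays, so the CD8 groups were both at the dim end. The CD4 change minus the CD8 change was -3.16 ± 0.59 (SE; limma adjusted p = 0.0054). For the Il4 probe set NM_021283_s_at, CD8 cells read 5.2, 9.3 and 28.8 in IL-2/IL-12 arrays, against 16.8, 15.4 and 22.8 in IL-2/IL-4 arrays. The difference of changes was -4.48 ± 0.66 (limma adjusted p = 0.00039). The brighter Il4 probe set had -2.57 ± 0.62 and did not pass (limma adjusted p = 0.090), with CD8 signals of 4.4 to 17.9 in IL-2/IL-12 arrays and 25.9 to 73.5 in IL-2/IL-4 arrays. For Klrd1 the difference was 1.57 ± 0.60 (limma adjusted p = 0.74), so its change is not shown to differ between the subsets. The experiment files of CD8 IL-2/IL-4 array C and CD8 IL-2/IL-12 array D each carry the other's letter; titles were kept, and both interactions passed without these arrays. With scan day as a block 0 interactions passed in limma (27 at an unadjusted p under 0.05), at -3.49 for Il4 and -3.13 for Ccr4 (adjusted p = 0.40 each).

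**Figure D4:**
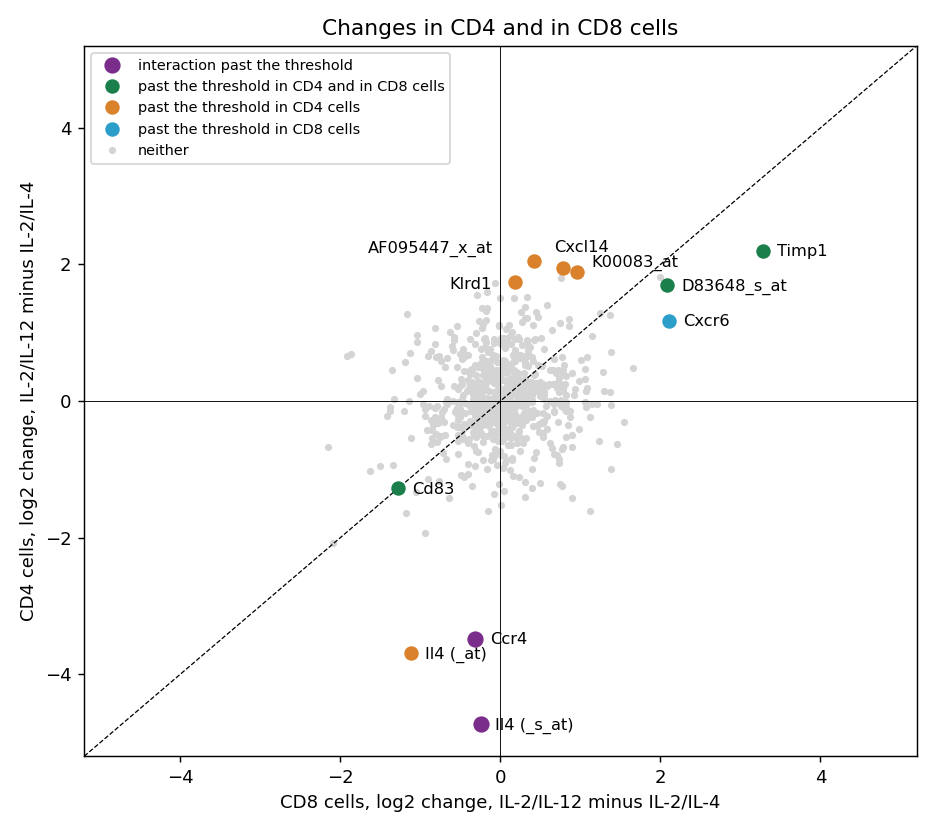
Log2 change (IL-2/IL-12 minus IL-2/IL-4) in CD4 cells (vertical axis) against the same in CD8 cells (horizontal axis) for 746 probe sets, with the line of equal change dashed. Il4 and Ccr4 lie low on the vertical axis with CD8 changes between -1.12 and -0.24, while Timp1, D83648_s_at and Cd83 passed in both subsets.

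The 6 CD4 arrays were scanned on 4 days, and 1 day held both groups: IL-2/IL-12 arrays D and E and IL-2/IL-4 array C. Within the shared day the log2 change was -3.40 for the brighter Il4 probe set, -4.12 for the other and -3.64 for Ccr4, and on the other days it was -3.71, -5.48 and -3.47. Cd83 was uneven, at -0.53 within the shared day and -1.61 on the other days, as was Timp1, at 3.21 within the shared day and 1.12 on the other days. Cxcl14 was at 1.12 within the shared day and 2.70 on the other days. With scan day as a block, 4 probe sets passed, 3 of them the Il4 pair and Ccr4 and the fourth AF095447_x_at. The 12 arrays of the shared day alone leave 5 residual degrees of freedom, and 0 probe sets passed there in limma (45 at an unadjusted p under 0.05; adjusted p = 0.16 for both Il4 probe sets and 0.25 for Ccr4). 

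Each of the 6 arrays was also left out in turn. The count of probe sets that passed was 6 without IL-2/IL-12 array D, 5 without E and 6 without L, and 4 without IL-2/IL-4 array A, 5 without B and 6 without C. Il4, Ccr4 and D83648_s_at passed in all 6 fits, with adjusted p of at most 0.0234. Their calls therefore did not rest on a single array. AF095447_x_at missed the threshold without IL-2/IL-12 array E or IL-2/IL-4 array A or C, with adjusted p up to 0.088. Cd83 passed without IL-2/IL-12 array E or IL-2/IL-4 array C, the nearly level pair, and missed it without any other, with adjusted p up to 0.18. Timp1 passed only without IL-2/IL-12 array L (adjusted p = 0.038, and up to 0.23 without the others), Klrd1 only without IL-2/IL-12 array D (0.035, up to 0.32) and Cxcl14 only without IL-2/IL-4 array C (0.042, up to 0.26). K00083_at missed the threshold in all 6 fits (adjusted p = 0.054 to 0.23).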

How the data were processed

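RNA of 30 lymphocyte samples was hybridised to a custom Affymetrix array. The values deposited by the authors are linear intensities, 1 for each probe set on each array. How probes were summarised and arrays scaled is not given in the sources used here. Groups and letters were read from the titles. The labels' longer description of T-cell arrays also names B cells, and each array was taken as the subset in its title. Of 752 probe sets, 6 controls were left out. Of the 746 left, 450 were named through RefSeq accessions (GRCm38.p6), giving 375 genes, and 296 carry no gene name here. Suffixes of shared probes occur in 223 (_s_at) and 16 (_x_at), whose signal can include a related transcript.

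One limma model (limma 3.58.1, R 4.3.3; lmFit, contrasts.fit, eBayes) of 10 group means was fitted to log2(signal + 16) of all 30 arrays, with 20 residual degrees of freedom. Tests were two-sided, with Benjamini-Hochberg adjustment over 746 probe sets and a threshold of 0.05. The difference between CD4 and CD8 cells was an interaction in this fit. A gene is represented by its brightest probe set over all arrays. The fit was tested on simulated data with independent noise and no scan day or chip lot effect. That test therefore does not bear on such effects. Arrays have no read depth, and their number limits the precision.

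Named genes are up to 15 past the threshold in each direction, then the next by moderated t until 10 are named, if brighter than the median probe set in 1 group, with up to 4 members of each of 37 gene lists and 24 genes chosen by name. Members, lists and tests were chosen with earlier results of these data known. Alternatives were other pseudocounts, scalings, filters, sets of arrays, blocks and leaving out each array. Figures were drawn with Python 3.11.15 and matplotlib 3.10.9.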

Additional observations from a re-analysis of the deposited data

Results flagged for a closer look

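The effect of IL-12 against IL-4 differed between CD4 and CD8 cells for 2 probe sets, by the test of that difference. For Ccr4 the log2 change in CD4 cells minus that in CD8 cells was -3.16 ± 0.59 (SE; limma adjusted p = 0.0054). For the Il4 probe set NM_021283_s_at it was -4.48 ± 0.66 (limma adjusted p = 0.00039). The CD4 arrays of one condition were all apart from those of the other for both probe sets, and their CD8 signals were 28.8 or lower on each array. For the brighter Il4 probe set the difference was -2.57 ± 0.62 and did not pass (limma adjusted p = 0.090). The 4 groups share no arrays between the subsets.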

How the results depend on the processing

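The count of 10 probe sets (60.0% of them higher with IL-12) was within 1.5 times of that, at 7 to 10, for pseudocounts of 1 and 64, median centring, quantile normalization, leaving out the dimmest 40% (which removes both Il4 probe sets and Ccr4), the 12 CD4 arrays alone, the beta-actin ratio as a covariate, scan period, chip lot, trend and robust settings, and 1 value per gene. Under median centring and under quantile normalization 9 passed, 44.4% of them higher with IL-12, and median centring moved the median change of all probe sets to -0.10. The count was 6 with only the 6 arrays compared, 1 higher and 5 lower, where 3 of the 10 were kept (both Il4 probe sets and Ccr4) and Ccr8, Tgfb3 and Il17a came in (adjusted p = 0.044, 0.047 and 0.044). It was 4 with scan day as a block, 4 to 6 with an array left out, and 0 within the shared scan day (limma; 45 at an unadjusted p under 0.05). The cause of these lower counts was not tested, and the fits that leave arrays out also hold fewer arrays. The interaction count of 2 was 2 or 3 with those pseudocounts and scalings, without the CD8 arrays of exchanged letter and with any array left out, and 0 with scan day as a block (limma; 27 at an unadjusted p under 0.05). The replicate block changed no call: 10 probe sets passed with the title letter as a random block (correlation 0.08), and 2 interactions with it as a fixed block. Same-letter arrays had correlated deviations of -0.11 to 0.19. The letters were not taken as pairs, though CD4 arrays L of the IL-2/IL-12 and IL-2 groups share a scan day and a chip lot. Over the followed genes and probe sets 71 calls were lost, those of the interaction included, and 7 were gained. Only a probe set that had passed can lose a call. Timp1 and Klrd1 kept theirs in 7 of 20 alternatives fitted by probe set, and Cxcl14 in 8 of 20. Ccr4 and each Il4 probe set kept theirs in 18 of 19, and the others in 10 to 17 of 20. Of 2360 values 104 changed sign, all of them of genes that had not passed. Chip lot, the shared scan day and the interaction's scan day and exchanged letters were added after seeing the data in this work, later than the other alternatives. The lowest signals may lie at background, and no detection call was used.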
